A study of Mus musculus with 4 samples.

Results

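Titin, nebulin and the proteins of the M-band were described here through every non-control probe that the array annotation assigned to 9 mouse genes: Ttn (titin), Neb (nebulin), Nebl (nebulette), Myom1 and Myom2 (myomesins), Nrap, Cmya1 (now Xirp1), Smpx and Flnc (filamin C). The rule used gene names and gave 9 of 27745 names in the array's gene column and 28 of its 41174 probes. RNA came from C2C12 cells, a mouse myoblast line that fuses into myotubes when serum is lowered, at day 6 of differentiation. The treated group received 20 nM GDF8 (recombinant mouse myostatin, a ligand of the TGF-beta family) every 24 h throughout these 6 days, and the control group received nothing. The labels disagree on the horse serum content of the differentiation medium, which both groups shared. Each of 4 two-colour Agilent arrays carried 1 GDF8 RNA and 1 untreated RNA, the GDF8 RNA being labelled with Cy3 in replicates 1 and 4 and with Cy5 in replicates 2 and 3. The labels call these biological replicates but do not tell whether they were separate cultures, so p-values measure only the spread between these samples, and the number of arrays limits the precision. The groups represent a single cell line at a single dose and day.

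The sarcomere, the contractile unit of striated muscle, is bounded by Z-discs and crossed in its middle by the M-band. Titin reaches from the Z-disc to the M-band and works as a spring and a scaffold for the thick filament, nebulin runs along the thin filament, and myomesins cross-link thick filaments at the M-band. NRAP and XIRP1 bind actin and are known from growing myofibrils and from the sites where muscle fibres attach, while filamin C cross-links actin at the Z-disc and the cell membrane. Their genes are switched on as myoblasts leave the cell cycle and differentiate, and myostatin is known as an inhibitor of muscle growth.

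The promoters of Ttn, Myom1 and Nrap are shown because these genes each had a probe that fell after GDF8 and held a match to a muscle motif in the 250 bases before the start site. The sequences are RefSeq's, on GRCm38.p6, written 5' to 3' on the gene's strand in lower case, with motif matches in capitals. They lie at chr2:76982548-76982797 on the minus strand for Ttn, chr17:71019307-71019556 on the plus strand for Myom1, and chr19:56390039-56390288 on the minus strand for Nrap.

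Ttn: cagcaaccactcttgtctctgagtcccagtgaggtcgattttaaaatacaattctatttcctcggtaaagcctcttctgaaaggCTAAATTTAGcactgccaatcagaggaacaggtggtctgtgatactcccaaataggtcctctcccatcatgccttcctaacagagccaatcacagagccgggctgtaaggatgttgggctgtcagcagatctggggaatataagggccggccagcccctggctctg

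Myom1: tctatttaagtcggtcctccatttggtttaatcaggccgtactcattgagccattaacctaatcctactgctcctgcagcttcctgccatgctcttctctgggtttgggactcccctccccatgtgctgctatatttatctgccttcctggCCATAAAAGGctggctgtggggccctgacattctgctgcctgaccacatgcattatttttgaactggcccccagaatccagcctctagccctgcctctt

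Nrap: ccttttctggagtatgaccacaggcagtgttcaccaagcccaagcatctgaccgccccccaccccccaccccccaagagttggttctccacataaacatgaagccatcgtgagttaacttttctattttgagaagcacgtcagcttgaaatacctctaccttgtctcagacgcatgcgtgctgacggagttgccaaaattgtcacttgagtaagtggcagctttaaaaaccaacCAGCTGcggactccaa

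The capitals in Ttn mark a MEF2 consensus that begins 166 bases before the start site, those in Myom1 a CArG box at 99 bases, and those in Nrap the E-box CAGCTG at 16 bases. Over the 32851 RefSeq promoters of this length, 2.92% held the MEF2 consensus, 1.47% the CArG box and 13.0% CAGCTG. The search also covered CATTCC, in 12.6% of promoters, CAGACA, in 17.1%, and TATAAA, in 7.59%. Both strands were read for every motif except TATAAA, which was sought on the gene's strand, and none of these 3 motifs was found in the windows shown. A MEF2 consensus and a CArG box are both AT-rich, but matches to these patterns as searched cannot overlap. The table held promoters for 6 of the 9 genes, 10 in all. Neb and Cmya1, which also had a probe that fell, were not among them. Matches also lay in windows not shown, of genes without a probe that fell. These were a CArG box at 162 bases, CATTCC at 230 and CAGACA at 101 in Nebl promoters, and CATTCC at 104 bases in Flnc. A match describes the letters and does not show binding.

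Each array held 43379 non-control spots, of which 63.3% to 78.8% were well above background in a given channel. Between 0.745% and 12.1% of spots were saturated in the GDF8 channel and between 4.11% and 11.1% in the untreated channel, and all 4 arrays lay on a single slide. The probes of the myotube genes Myog, Acta1, Myh3, Tnnt3 and Casq2 were saturated in the untreated channel on all 4 arrays and in the GDF8 channel on 2 or 3 of them, so both groups expressed markers of differentiated muscle. A probe was tested when it was well above background on all arrays of a group and not saturated on all arrays of a group. This left 21 of the 28 probes, from 7 genes, of 25372 probes tested in all.

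After GDF8, signal was lower on most tested probes of nebulin and of the M-band protein myomesin 1, on the single probes of Nrap and Cmya1, and on 1 of the 7 tested titin probes. Of the 21 tested probes, 8 fell at an adjusted p under 0.05 (limma, Benjamini-Hochberg over all probes tested) and 0 rose. The 8 make up 38.1% of the tested probes of these genes, while 2.13% of all tested probes fell and 0.847% rose. They came from 5 genes, with 3 of the 4 tested Neb probes, 2 of the 3 Myom1 probes, 1 of the 7 tested Ttn probes and the single probes of Nrap and Cmya1. Their fitted log2 ratios of GDF8 over untreated ran from -0.99 to -0.58, which is 1.98-fold to 1.49-fold lower, with adjusted p of 0.013 to 0.043. The other 13 tested probes had fitted log2 ratios of -0.66 to -0.04 and did not pass, among them both tested Nebl probes and all 3 tested Flnc probes. In bulk RNA such as this, fewer cells of a type and less RNA per cell cannot be told apart.

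The median fitted log2 ratio over the 21 tested probes was -0.58, against 0.01 over all tested probes. By array, the median of the 21 log2 ratios was -0.83, -0.86, -0.26 and -0.45 in replicates 1 to 4, and 21, 20, 16 and 18 of them lay below 0. Replicate 3 thus showed the smallest shift and replicate 2 the deepest median. The ratio was below 0 on all 4 arrays for 13 of the 21 probes, including all 8 that fell. Over all tested probes, 8.23% had this pattern. Among the 13, both tested Nebl probes and Myom1 A_52_P515744 were well above background on all arrays only in the untreated group. They passed the filter through the group where they were higher, so they add no support. All 8 that fell were well above background on every array in both groups.

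**Figure D1:**
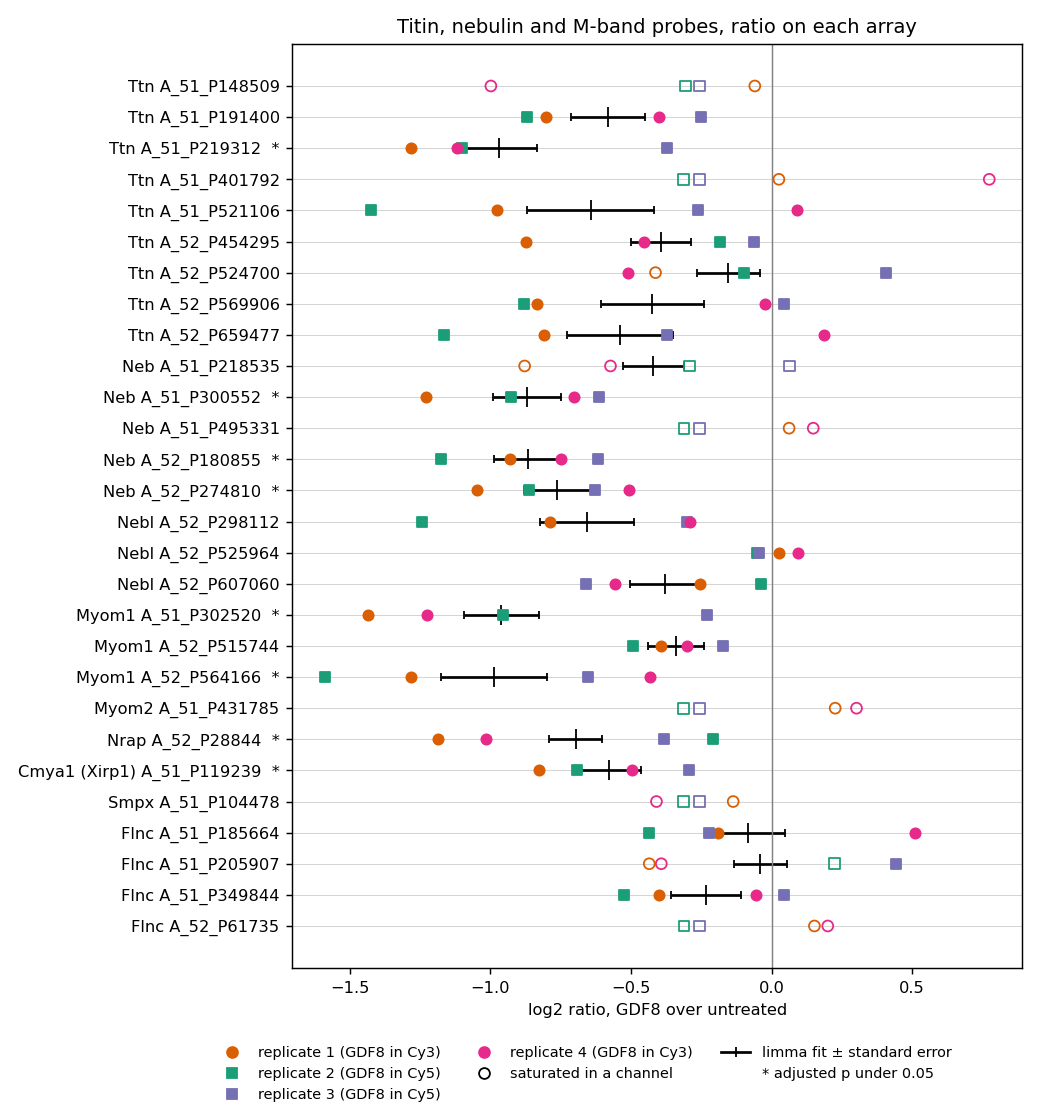
Log2 ratio of GDF8 over untreated for each probe of the 9 genes on each of the 4 arrays, with 1 point per array and the fitted value and its standard error for tested probes. The points of the 8 probes that fell all lie left of 0, while several Ttn and Flnc probes have points on both sides.

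Leaving out arrays changed which probes passed. Without replicate 1, none of the 8 passed, with adjusted p of 0.051 to 0.157, and without replicate 4 none passed, with adjusted p of 0.055 to 0.108 (limma). Without replicate 2, the calls of Ttn A_51_P219312 and Myom1 A_51_P302520 held, and the 8 probes had adjusted p of 0.046 to 0.244. Without replicate 3, 6 of the 8 held, with Nrap at 0.052 and Cmya1 at 0.053, and Ttn A_51_P191400 and Nebl A_52_P298112 passed in addition. The log2 ratios of the 8 probes stayed between -1.22 and -0.48 in these fits. Over all tested probes, the same fits called 306 lower without replicate 1, 184 without replicate 2, 422 without replicate 3 and 48 without replicate 4, against 540 with all arrays. Without the pairing of channels by array, Neb A_52_P274810 (adjusted p = 0.113), Nrap (0.074) and Cmya1 (0.095) did not pass, and with the methods' t-test after Benjamini-Hochberg adjustment none of the 8 did, at 0.055 to 0.354.

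**Figure D2:**
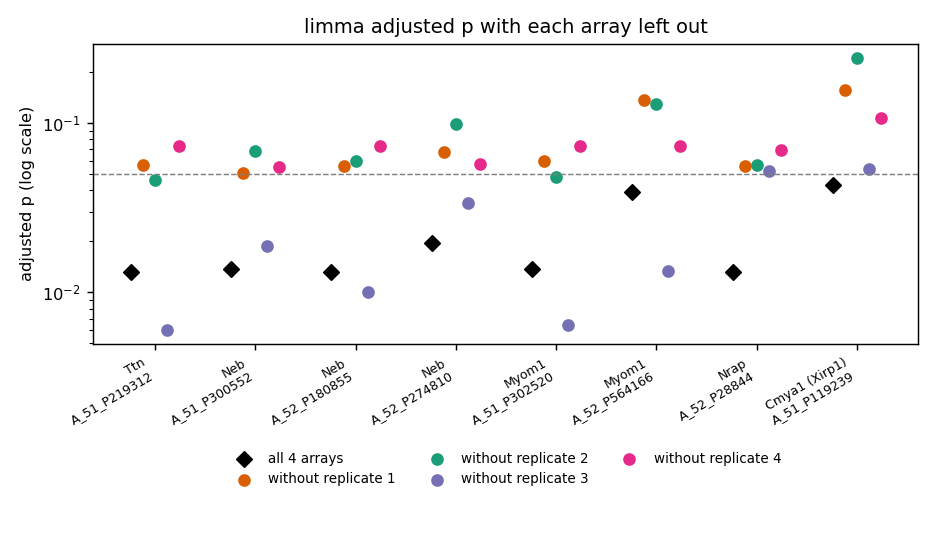
Adjusted p (limma, log axis) of the 8 probes that fell, with all 4 arrays and with each array left out in turn, against the threshold of 0.05. All 8 lie above the threshold without replicate 1 or replicate 4, and 6 lie below it without replicate 3.

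Titin was read by 9 probes, and they did not give a common value. On A_51_P219312, whose annotation is a cDNA clone, the log2 ratio was -1.28, -1.10, -0.37 and -1.12 in replicates 1 to 4. GDF8 was lower on every array of this probe, least so on replicate 3. The fitted log2 ratio was -0.97 ± 0.13 (SE, n = 4; adjusted p = 0.013, limma), or 1.96-fold lower. The other 6 tested Ttn probes carry a RefSeq transcript annotation and did not pass, with fitted log2 ratios of -0.64 to -0.15.

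Among those 6, A_51_P191400 was below 0 on every array, with log2 ratios of -0.80, -0.87, -0.25 and -0.40 and a fit of -0.58 ± 0.13 (SE; adjusted p = 0.076, limma). A_52_P454295 was also below 0 throughout, from -0.87 in replicate 1 to -0.06 in replicate 3, with a fit of -0.39 ± 0.11 (adjusted p = 0.135). On A_51_P521106, A_52_P659477 and A_52_P569906, replicates 1 and 2 were both lower than replicates 3 and 4. A_51_P521106 had log2 ratios of -0.98, -1.43, -0.26 and 0.09, and A_52_P659477 had a fit of -0.54 ± 0.19 (adjusted p = 0.27). A_52_P569906 gave -0.83, -0.88, 0.04 and -0.02, with a fit of -0.42 ± 0.18 (adjusted p = 0.41). A_52_P524700, the brightest tested Ttn probe, ran from -0.51 in replicate 4 to 0.41 in replicate 3, with a fit of -0.15 and a 95% confidence interval of -0.42 to 0.11. Its untreated spot was saturated on 1 array. The difference between Ttn probes was not tested, since different probes of a gene need not respond alike to the same RNA.

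Nebulin was the gene with the most probes that fell. A_51_P300552 had log2 ratios of -1.23, -0.93, -0.61 and -0.70, and its fit was -0.87 ± 0.12 (SE; adjusted p = 0.014, limma), or 1.83-fold lower. A_52_P180855 had a fit of -0.87 ± 0.12 (adjusted p = 0.013), with replicate 2 lowest and replicate 3 at -0.62. These 2 probes thus gave like values from separate spots on each array. A_52_P274810 had log2 ratios of -1.05, -0.86, -0.63 and -0.51 and a fit of -0.76 ± 0.12 (adjusted p = 0.019), or 1.70-fold lower. All 3 probes were below 0 on all arrays and none of their spots was saturated.

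The remaining tested Neb probe, A_51_P218535, was far brighter and did not pass, with log2 ratios of -0.88, -0.29, 0.06 and -0.57. Its fit was -0.42 ± 0.11 (SE; adjusted p = 0.116, limma), and 2 GDF8 spots and 2 untreated spots were saturated. With arrays centred on the median in place of loess, the same probe had a log2 ratio of -0.59 and an adjusted p of 0.030.

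Nebulette, a shorter relative of nebulin known from heart muscle, was at the lower end of the signal range. A_52_P298112 had log2 ratios of -0.79, -1.24, -0.30 and -0.29, all below 0, and a fit of -0.66 ± 0.17 (SE; adjusted p = 0.109, limma). A_52_P607060 was below 0 on all arrays as well, from -0.66 in replicate 3 to -0.04 in replicate 2, with a fit of -0.38 ± 0.13 (adjusted p = 0.249). Both were well above background on 3 of 4 arrays in the GDF8 channel. In the authors' deposited table, the fitted log2 ratios of these probes were -1.32 and -0.67. The third probe, A_52_P525964, was not well above background on any array in either group.

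Myomesin 1 was read by 3 probes, of which 2 fell. A_51_P302520 had log2 ratios of -1.43, -0.96, -0.23 and -1.23, with a fit of -0.96 ± 0.13 (SE; adjusted p = 0.014, limma), or 1.95-fold lower. A_52_P564166 had log2 ratios of -1.28, -1.59, -0.65 and -0.43, with a fit of -0.99 ± 0.19 (adjusted p = 0.039), or 1.98-fold lower. GDF8 was lower on every array of both probes, but the array nearest 0 was replicate 3 on the first and replicate 4 on the second. The call of A_52_P564166 was lost without background correction (adjusted p = 0.053), with the authors' deposited table (0.067) and without the filter on dim probes (0.063). The dim probe A_52_P515744 was also below 0 on every array, from -0.49 to -0.17, with a fit of -0.34 ± 0.10 (adjusted p = 0.175). It was well above background on 3 of 4 arrays in the GDF8 channel. The single Myom2 probe, for the related M-band protein myomesin 2, was saturated and is given with the saturated probes.

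Nrap encodes a nebulin-related anchoring protein. Its single probe had log2 ratios of -1.19 and -1.01 with GDF8 in Cy3 (replicates 1 and 4) and of -0.21 and -0.38 with GDF8 in Cy5 (replicates 2 and 3). The mean was -1.10 in the first orientation and -0.30 in the second. The fit, which carries a dye term, gave -0.70 ± 0.10 (SE; adjusted p = 0.013, limma), or 1.62-fold lower, and the dye term itself was 0.40 (adjusted p = 0.078). GDF8 was lower in both orientations. Without the dye term, the adjusted p was 0.112.

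Cmya1, now Xirp1, encodes a Xin repeat protein that binds actin. Its probe had log2 ratios of -0.83, -0.69, -0.30 and -0.50, lower with GDF8 on each array. The fit was -0.58 ± 0.11 (SE; adjusted p = 0.043, limma), or 1.49-fold lower, the shallowest of the 8 falls. The call was lost with the authors' deposited table, at an adjusted p of 0.088, without the filter on dim probes, at 0.058, and without the dye term, at 0.065.

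For filamin C, none of the 3 tested probes passed. A_51_P205907 had log2 ratios of -0.44, 0.23, 0.44 and -0.39, below 0 with GDF8 in Cy3 and above 0 with GDF8 in Cy5, with a fit of -0.04 (95% confidence interval -0.26 to 0.18). Of the spots of this probe, 1 GDF8 spot and 2 untreated spots were saturated, so its interval does not bound the change in RNA. A_51_P185664 ran from -0.43 in replicate 2 to 0.51 in replicate 4, with a fit of -0.08 (interval -0.39 to 0.23). A_51_P349844 had log2 ratios of -0.40, -0.52, 0.04 and -0.05, with a fit of -0.23 (interval -0.53 to 0.06). Without replicate 1 the fit of A_51_P185664 was 0.092, and without replicate 2 that of A_51_P205907 was 0.014, so no direction is given for either.

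The following 6 probes were saturated in the untreated channel on all 4 arrays: Ttn A_51_P148509 and A_51_P401792, Neb A_51_P495331, Flnc A_52_P61735, and the single probes of Myom2 and Smpx (a small muscle protein found at costameres). The GDF8 spots of the same probes were saturated on 2 arrays, and on 3 for Myom2, so neither group has a measured mean and no fold or bound is given. In replicates 1 and 4, with GDF8 in Cy3, the log2 ratio was -0.06 and -0.999 for Ttn A_51_P148509 and -0.14 and -0.41 for Smpx. It was above 0 on both arrays for Neb (0.06 and 0.15), for Flnc (0.15 and 0.20) and for Ttn A_51_P401792 (0.03 and 0.77). A saturated untreated spot understates the untreated signal, so the ratios above 0 carry no direction for the RNA. For those below 0, the part of the normalisation near the ceiling was not tested, and no direction is given.

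In replicate 4, where the GDF8 channel had few saturated spots, raw GDF8 brightness was 12218 for Ttn A_51_P148509, 20822 for Smpx and 34851 for Neb. It was 36581 for Flnc, 40279 for Myom2 and 63306 for Ttn A_51_P401792, while every untreated spot stood at 65261. On this array, the 267 spots saturated in both channels had a median log2 ratio of 0.81 after normalisation. Equal raw signals thus did not mean a ratio of 0, and the raw values give no fold. In replicates 2 and 3, GDF8 was in Cy5 and all 6 probes were saturated in both channels. Their log2 ratios there were nearly the same, at -0.31 in replicate 2 and -0.26 in replicate 3, which were also the medians of all 1584 and 1863 spots saturated in both channels on those arrays. Such a ratio shows the scanner's ceiling after normalisation and not the RNA. In replicate 1, Myom2 was saturated in both channels at 0.23, the median of the 2101 such spots there.

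**Figure D3:**
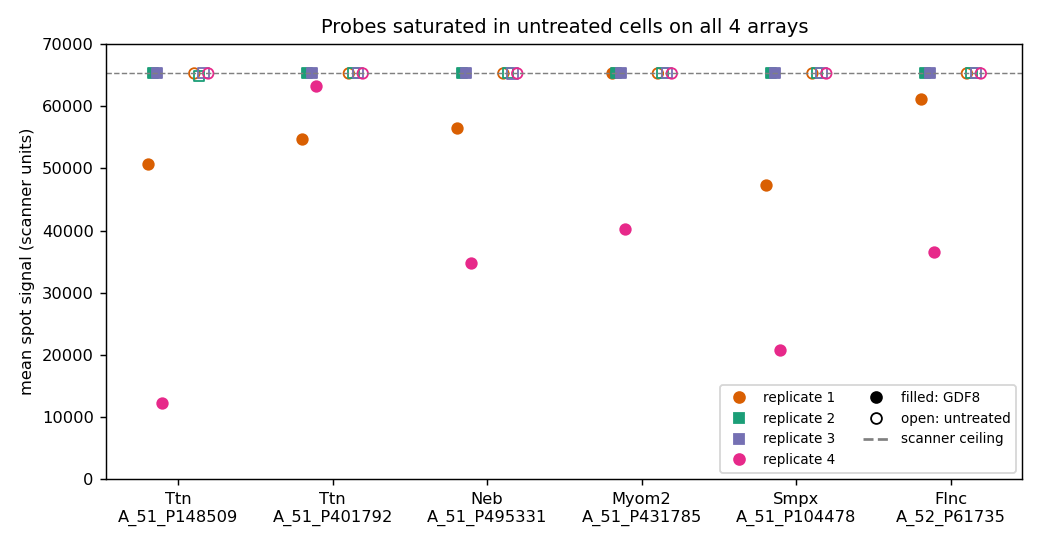
Raw mean brightness (arbitrary scanner units, before normalisation) of the 6 probes saturated in the untreated channel on all 4 arrays, for GDF8 and untreated on each array. GDF8 points leave the ceiling in replicates 1 and 4, except Myom2 in replicate 1, furthest for Ttn A_51_P148509 in replicate 4 at 12218, and sit on it in replicates 2 and 3.

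All 8 probes that fell had a mean log2 brightness between 10 and 15. In that range 13 probes were tested, with a median fitted log2 ratio of -0.70. The 4 tested probes under 10, which include both Nebl probes and the dim Myom1 probe, had a median of -0.36, and 0 passed. The 4 above 15, which include Ttn A_52_P524700, Neb A_51_P218535 and Flnc A_51_P205907, had a median of -0.27, and 0 passed. Among the 18 tested probes with no saturated spot, the same 8 passed and the median was -0.61. A saturated spot occurred on 3 tested probes, all above 15, while Ttn A_52_P454295, also above 15 with a fit of -0.39, had none. The part of saturation in the smaller values of the bright probes was not tested.

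**Figure D4:**
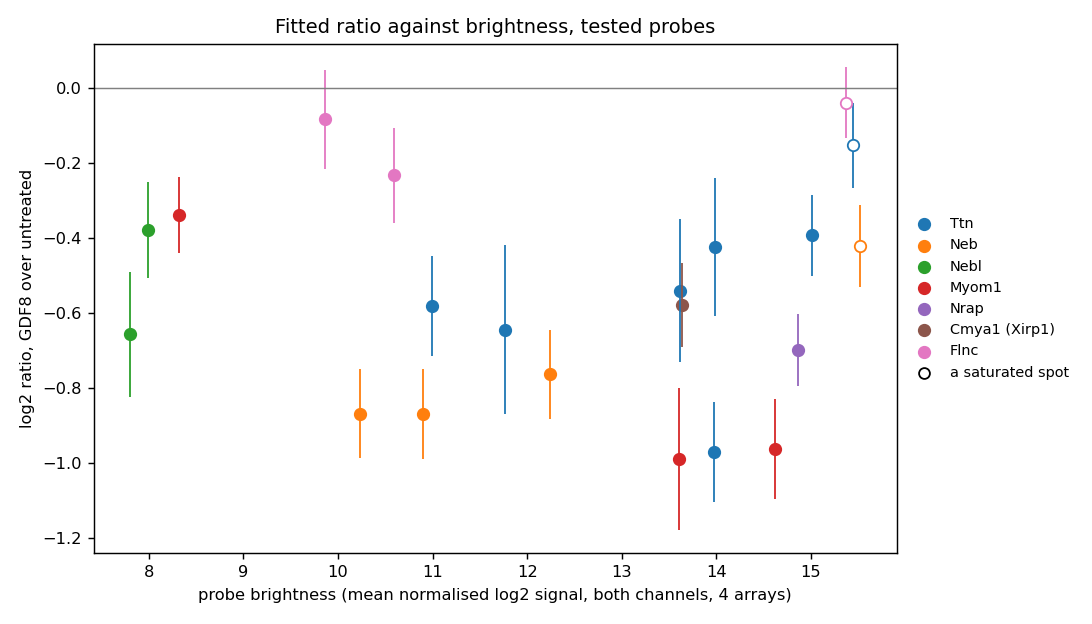
Fitted log2 ratio of GDF8 over untreated, with its standard error, against mean log2 brightness for the 21 tested probes. The 8 probes that fell lie between 10 and 15 on the brightness axis, and the 4 probes above 15 lie at -0.42 or nearer to 0.

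Genes that bind, order or turn over these proteins were read from a list of 44 genes, of which 36 had a tested probe. Of their 61 tested probes, 18 from 13 genes fell and 2 from 2 genes rose, where 2.13% of all tested probes fell and 0.847% rose. The median fitted log2 ratio was -0.26, against 0.01 over all tested probes. At the Z-disc, Tcap (telethonin, which caps the end of titin) had a fit of -1.29 ± 0.11 (SE; adjusted p = 0.0051, limma), and Actn2, which cross-links thin filaments there, had a fit of -1.39 ± 0.15 (adjusted p = 0.0082). Myot (myotilin) fell by 1.13 and Ldb3, a Z-disc PDZ protein, fell by 0.98 on the log2 scale.

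At the thin filament, Tmod1, which caps the pointed end, fell by 0.97 on the log2 scale on 1 of its 2 tested probes. The other, A_51_P297069, had a fit of -0.49 (adjusted p = 0.062, limma), with replicate 3 at 0.17 and 2 untreated spots saturated. Lmod2, which lengthens the filament, fell by 0.76 on the log2 scale. The Lmod2 ratios were close together, from -0.82 to -0.65. Myom3, the third myomesin, had log2 ratios of -1.28 and -1.25 with GDF8 in Cy3 and of -0.32 and -0.14 with GDF8 in Cy5. Its fit was -0.75 ± 0.09 (adjusted p = 0.011, limma), with 2 spots saturated in each group, and it passed in 9 of 14 alternative fits, leaving out arrays included. Both myomesins with a tested probe, Myom1 and Myom3, thus had a probe that fell.

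Flna, for the widely expressed actin cross-linker filamin A, had 2 tested probes, with fits of 0.41 (adjusted p = 0.073, limma) and 0.27 (adjusted p = 0.504), and neither passed. Its difference from Flnc was not tested. Among the probes that rose was Lasp1 A_52_P419298, for an actin-binding protein with nebulin repeats, at 0.67 ± 0.11 (SE; adjusted p = 0.022), 1 of 4 tested Lasp1 probes, named here after its value was seen.

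Markers of cell states and of other cell types were read from lists as well, and the lists did not move alike. Of 10 tested probes of dividing-cell genes (Mki67, Top2a, Ccnb1, Cdk1, Ccna2, Birc5), 8 from 5 genes rose, with a median fitted log2 ratio of 0.80. Over all tested probes, 0.847% rose. The summed level of the list's 12 probes per array was 178449 to 204347 with GDF8 and 127444 to 154591 untreated. This sum includes Birc5 A_51_P230103 and Mki67 A_51_P253803, which had saturated spots in both groups and did not pass. Without replicate 4, 0 of the 10 passed and the median was 0.73, but 0 of all 25097 probes tested in that fit rose. Of the myotube list, 8 of 13 probes were saturated in a whole group. Of the 4 tested, Ckm (muscle creatine kinase) fell by 0.93 and Myh8 A_52_P363051 (perinatal myosin) by 0.70 on the log2 scale. This Myh8 probe was well above background on 4 arrays untreated and on 2 with GDF8. It passed the filter only through the untreated group, where it was higher, so its fall adds no support. The myotube sum was 519530 to 553769 with GDF8 and 497387 to 645060 untreated, with the top held down by saturation.

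Of 5 tested heart-list probes, the 2 that fell were both Myh6, at -0.97 and -1.05. Both Nppb probes had a fit of 0.51, above 0 on all 4 arrays (adjusted p = 0.072 and 0.077, limma), and Nppa had 0.04. No probe of Myl7 or Ryr2 was well above background on all arrays of a group, and the list's sum was 10808 to 12059 with GDF8 and 11274 to 18974 untreated. Of 5 tested smooth-muscle probes, Lmod1 fell by 0.48 on the log2 scale. Cnn1 had a fit of 0.56, above 0 on all 4 arrays (adjusted p = 0.074, limma), the 2 Acta2 probes had 0.38 and -0.09, and Smtn had -0.20. Myh11 was well above background on 1 array in each group, with a list sum of 209041 to 264658 with GDF8 and 212696 to 267510 untreated. None passed among 5 fat-cell, 10 bone or cartilage and 3 reserve-myoblast probes (limma), and no probe of Adipoq, Plin1, Retn or Ibsp was well above background on all arrays of a group. The sums of these 3 lists overlapped between the groups. The part of these markers in the lower titin, nebulin and myomesin values was not tested.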

How the data were processed

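Per the file headers, the deposited scanner files hold spot intensity in both channels, a log10 ratio of red over green and flags (other values) for saturation, outliers and signal above background, as written by Agilent Feature Extraction. The authors' deposited table holds log2 ratios: at a tolerance of 0.001 for 100% of 40929 single-spot probes they equalled the ratio of processed signals, GDF8 over untreated, uncentred, with medians of 0.14, -0.09, -0.11 and 0.09. A genome build is not given in the sources used here. Per the series' design text, the authors filtered on flags and used an unpaired test at p under 0.05 and a fold over 1.6.

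Mean signals were corrected with normexp (offset 50) and loess within arrays, giving control spots a weight of 0 (limma 3.58.1, R 4.3.3). Outlier-flagged spots were left out and spots of 1 probe averaged. Each probe was fitted with a GDF8 term and a dye term (lmFit, eBayes), with Benjamini-Hochberg adjustment over 25372 probes at 0.05, and 1491 probes saturated in a whole group were left out. The fit was tested on simulated data. Gene names of non-member lists came through RefSeq accessions or symbols where matched (24375 by accession, 6301 by symbol, 2426 by synonym, 8072 as in the files). Each array pairs 1 GDF8 with 1 untreated RNA, so ratios were taken within arrays, and no batch term was possible on a single slide.

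All probes of the 9 genes are reported. Of the partner genes, at most 8 past the threshold were named by smallest p, with Flna in any case, and some items of this list are not reported here. The members and lists were chosen with earlier results of these data known. Alternatives covered background correction, normalisation, the deposited table, the filter, the dye term, pairing, probe choice, saturated spots, the methods' t-test and leaving out each array.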

Additional observations from a re-analysis of the deposited data

How the results depend on the processing

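No probe of the 9 genes was called higher under any alternative run, and calls of lower probes depended on which arrays were kept and on the test used. The count of 8 lower was 5 with no replicate block (unpaired single-channel values), 3 with the brightest probe of each gene (of 7), 0 with the methods' t-test after Benjamini-Hochberg, and 0 to 8 leaving out an array. The other alternatives gave 6 to 12. Over all probes, against 540 lower and 215 higher, the counts were 318 and 71 without the block, 95 and 28 by the methods' t-test after Benjamini-Hochberg, 353 and 87 at the methods' p and fold thresholds, and 48 to 422 and 0 to 159 leaving out an array. Higher calls were 140 with the deposited table and 106 without the dye term. Partner probes, 18 lower and 2 higher, became 11 and 1 with the brightest probe, 1 and 0 by the methods' t-test after Benjamini-Hochberg, and 2 to 18 and 0 to 1 leaving out an array. Partner probes higher were 1 with median centring, 1 with the deposited table, 1 without the dye term, 0 without the block and 0 at the methods' thresholds. Leaving out an array turned the sign of Flnc A_51_P185664, which ranged from -0.26 to 0.092, and of A_51_P205907, which ranged from -0.094 to 0.014. Leaving out arrays or probes leaves fewer samples or features, and for the others the cause was not tested. Saturation at the top and background at the bottom of the signal range limit what these arrays resolve.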

Other observations

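By dye orientation, the 4 tested probes with a mean log2 brightness above 15 each had a lower mean log2 ratio with GDF8 in Cy3 than in Cy5. The means were -0.66 and -0.12 for Ttn A_52_P454295, -0.46 and 0.15 for Ttn A_52_P524700, -0.73 and -0.11 for Neb A_51_P218535, and -0.41 and 0.33 for Flnc A_51_P205907. For the dimmer Neb probes A_52_P180855 and A_52_P274810, which fell, they were -0.84 and -0.90, and -0.78 and -0.75. Other probes under 15 that fell also differed by orientation. Their means were -1.10 and -0.30 for Nrap, -1.33 and -0.59 for Myom1 A_51_P302520, and -1.20 and -0.74 for Ttn A_51_P219312. Neb A_51_P300552 had means of -0.97 and -0.77, and Cmya1 had -0.66 and -0.49. Myom1 A_52_P564166, which also fell, went the other way, at -0.86 and -1.12. By kind of target, 3 of 6 tested cDNA clone probes fell, 3 of 5 probes to RefSeq predicted transcripts and 2 of 10 to RefSeq transcripts, with no test of the difference.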
